A study of Homo sapiens with 66 samples.

Results

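The Sprouty and SPRED genes encode feedback inhibitors of receptor tyrosine kinase, RAS and ERK signalling. The members described here are SPRY1, SPRY2, SPRY4, SPRED1, SPRED2 and SPRED3, matched by symbol to their Ensembl gene identifiers, which makes 6 of the 58721 genes in each deposited table. All 6 passed the filter on low counts in each of the 3 tables. The cells were A375, a human melanoma line whose BRAF carries an activating mutation, and their poly(A) RNA was read in 66 libraries that form 22 groups of 3 replicates.

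The vemurafenib experiment held cells with CRISPR guides against MED12, MED19 or MED23, with 2 guides per gene, and cells with a guide against GFP, which is not a human gene, as the control. Each of these 7 genotypes was given 1 µM vemurafenib, an inhibitor of mutant BRAF, or the solvent DMSO for 24 h. The SOX10 experiment held MED23 guide 1 cells and GFP guide cells, each carrying either a SOX10 overexpression construct or the empty vector. The HDAC3 experiment held MED23 and HDAC3 double knockout, HDAC3 knockout, MED23 knockout and control cells. No drug is named for the SOX10 or HDAC3 experiment. All cells grew in DMEM with 10% serum. A375 is a single line, and whether a knockout is a pool of cells or 1 clone was not given in the sources used here. Nothing in the labels says that replicates came from separate cultures, so every p-value measures the spread between these libraries, which may be technical. Each experiment has a batch number of its own in the labels and was tested only within its own table.

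Total counts per library were 65.88 to 211.79 M in the vemurafenib experiment, 24.87 to 30.77 M in the SOX10 experiment and 58.84 to 106.19 M in the HDAC3 experiment (M for 1000000 counts). In the 42, 12 and 12 libraries of the experiments, the library with the highest correlation to each one was of the same genotype and treatment. The knocked-out genes kept part of their transcripts. MED12 had 24 to 38.1 CPM (counts per 1000000) in MED12 knockout libraries, against 118 to 152 CPM in control-guide libraries. MED19 had 11.4 to 14.3 CPM in MED19 knockout libraries, against 24.2 to 27.4 CPM in control-guide libraries. MED23 had 16.1 to 21.9 CPM in MED23 knockout libraries of the vemurafenib experiment, against 36.7 to 47.8 CPM in control-guide libraries. Transcript level is not a measure of the knocked-out protein. Of the melanocyte lineage markers, SOX10 was high (66.2 to 1080 CPM in the vemurafenib experiment), while the pigment cell gene MLANA stayed between 1.18 and 2.22 CPM there and TYR, the tyrosinase gene, was at 0 in 25 of 42 libraries. Of the blood markers, the T cell gene CD3E reached at most 0.112 CPM in any library. LYZ was not near 0, with 2.78 to 20.8 CPM in the vemurafenib experiment, and PTPRC reached 2.75 CPM there. Over the libraries of the vemurafenib, SOX10 and HDAC3 experiments, the blood markers summed to 3.27 to 20.9, 6.7 to 14.9 and 8.41 to 19.2 CPM, the endothelial ones to 0.842 to 6.65, 1.29 to 4.56 and 1.25 to 2.81 CPM, and the epithelial ones to 1.62 to 18.6, 3.77 to 12.9 and 3.57 to 15 CPM. These low sums differed between groups, and only some of the differences are given beside the results. In DMSO, blood markers summed to 7.23 to 8.53 CPM in MED23 knockout cells, against 14.7 to 16.6 CPM in control-guide cells. Control-guide cells under vemurafenib had 10.4 to 10.9 CPM of them. Endothelial markers summed to 2.52 to 2.79 CPM in HDAC3 knockout cells, against 1.25 to 1.58 CPM in control cells of that experiment. The part of these sums in the results was not tested.

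Receptor tyrosine kinases activate RAS, which turns on the kinases RAF, MEK and ERK in sequence. ERK in turn raises transcription of its own inhibitors, among them the Sprouty genes and the DUSP phosphatases. Sprouty proteins act between the receptor and RAF; SPRY2 also binds the ubiquitin ligase CBL. SPRED1 and SPRED2 bind neurofibromin, the product of NF1, and bring it to the membrane, where it turns RAS off. SPRED3 is the least studied of the SPRED proteins. Mediator is the large complex that carries signals from transcription factors to RNA polymerase II. MED12 belongs to its kinase module, MED19 to its core and MED23 to its tail, and MED23 is known as a partner of the ERK target ELK1. SOX10 is a neural crest transcription factor, and HDAC3 is the histone deacetylase of the NCoR and SMRT corepressor complexes.

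The genes lie on separate chromosomes of GRCh38 (GENCODE 29 annotation). SPRY1 (ENSG00000164056) spans chr4:123396795-123403760 on the plus strand. SPRY2 (ENSG00000136158) spans chr13:80335976-80340951 on the minus strand, and SPRY4 (ENSG00000187678) spans chr5:142310427-142326455 on the minus strand. SPRED1 (ENSG00000166068) spans chr15:38252326-38357249 on the plus strand, SPRED2 (ENSG00000198369) chr2:65310851-65432637 on the minus strand and SPRED3 (ENSG00000188766) chr19:38388421-38399587 on the plus strand. No exon of a member shares bases with an exon of another annotated gene.

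RefSeq gives 11 promoter windows for the 6 members on GRCh38.p14, each from 250 bases before to 50 bases after a transcript start. The windows printed here, for each gene the one with most motif matches, are those of the 3 Sprouty genes and of SPRED3. The Sprouty genes responded most to vemurafenib. SPRED3 rose in all 3 Mediator knockouts in DMSO, where SPRY2 and SPRY4 fell. Capitals mark a match, on either strand, to the ETS core CCGGAA or to the AP-1 motif TGANTCA, the sequences that ERK-regulated ETS and FOS or JUN proteins recognise. ETS core means these letters in full here, and shorter matches such as GGAA, which the SPRY4 window holds, were not marked. Among all 35114 RefSeq windows of this length, 17.2% held the ETS core and 7.71% the AP-1 motif.
SPRY4, chr5:142324198-142324497, minus strand: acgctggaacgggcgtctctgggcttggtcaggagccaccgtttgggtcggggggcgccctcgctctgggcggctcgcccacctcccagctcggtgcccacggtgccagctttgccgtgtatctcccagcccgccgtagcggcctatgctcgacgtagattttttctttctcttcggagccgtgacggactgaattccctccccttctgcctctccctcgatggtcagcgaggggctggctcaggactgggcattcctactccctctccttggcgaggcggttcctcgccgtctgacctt
SPRY2, chr13:80341077-80341376, minus strand: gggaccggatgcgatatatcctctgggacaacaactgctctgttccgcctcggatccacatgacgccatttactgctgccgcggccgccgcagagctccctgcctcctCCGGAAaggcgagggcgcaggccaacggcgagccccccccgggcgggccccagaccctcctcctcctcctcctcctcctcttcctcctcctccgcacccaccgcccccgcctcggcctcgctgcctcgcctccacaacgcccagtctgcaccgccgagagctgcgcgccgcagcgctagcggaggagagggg
SPRY1, chr4:123398136-123398435, plus strand: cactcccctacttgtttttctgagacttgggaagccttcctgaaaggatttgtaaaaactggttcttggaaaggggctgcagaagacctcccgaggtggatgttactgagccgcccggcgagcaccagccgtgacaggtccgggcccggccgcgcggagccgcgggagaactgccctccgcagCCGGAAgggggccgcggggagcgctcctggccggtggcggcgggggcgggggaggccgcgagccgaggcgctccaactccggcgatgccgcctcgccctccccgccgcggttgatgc
SPRED3, chr19:38389541-38389840, plus strand: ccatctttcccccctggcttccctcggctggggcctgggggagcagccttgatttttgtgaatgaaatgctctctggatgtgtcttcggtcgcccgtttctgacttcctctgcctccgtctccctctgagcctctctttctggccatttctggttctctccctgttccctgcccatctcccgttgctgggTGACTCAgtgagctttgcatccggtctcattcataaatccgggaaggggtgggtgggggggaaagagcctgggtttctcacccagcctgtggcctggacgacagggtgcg
The ETS core occurred in 1 window of SPRY2 and 1 of SPRY1. Neither motif occurred in the single SPRY4 window, and the ETS core was in none of the 5 SPRED windows. The AP-1 motif occurred in this SPRED3 window and at 2 positions in the SPRED2 window chr2:65366729-65367028. A letter match is no evidence of binding, and its absence says nothing about sites elsewhere.

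The members differed in level before any treatment. Per kilobase of annotated exon, control-guide cells in DMSO had 73.7 ± 0.479 CPM of SPRY2 and 52.8 ± 1.56 CPM of SPRY4 (SD, n = 3). SPRED2 followed with 20.7 ± 0.264 and SPRED1 with 20.1 ± 0.436 CPM per kilobase, close together. SPRED3 had 5.75 ± 0.46 and SPRY1 3.2 ± 0.204 CPM per kilobase. Both other control groups had SPRY2 first, SPRY4 next and SPRY1 last on this scale. SPRED1 at 17.3 ± 0.87 and SPRED2 at 17.1 ± 0.468 CPM per kilobase were close together in the control cells of the HDAC3 experiment too, but control-guide cells with the empty vector had less SPRED1 (14.2 ± 0.568) than SPRED2 (18.9 ± 0.421 CPM per kilobase). Spread over the 14 groups of the vemurafenib experiment was also unequal. The log2 CPM of SPRY4 ranged over 7.66 units, that of SPRY1 over 4.83 and that of SPRY2 over 3.59, against 2.57 for SPRED3, 1.47 for SPRED2 and 1 for SPRED1.

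**Figure D1:**
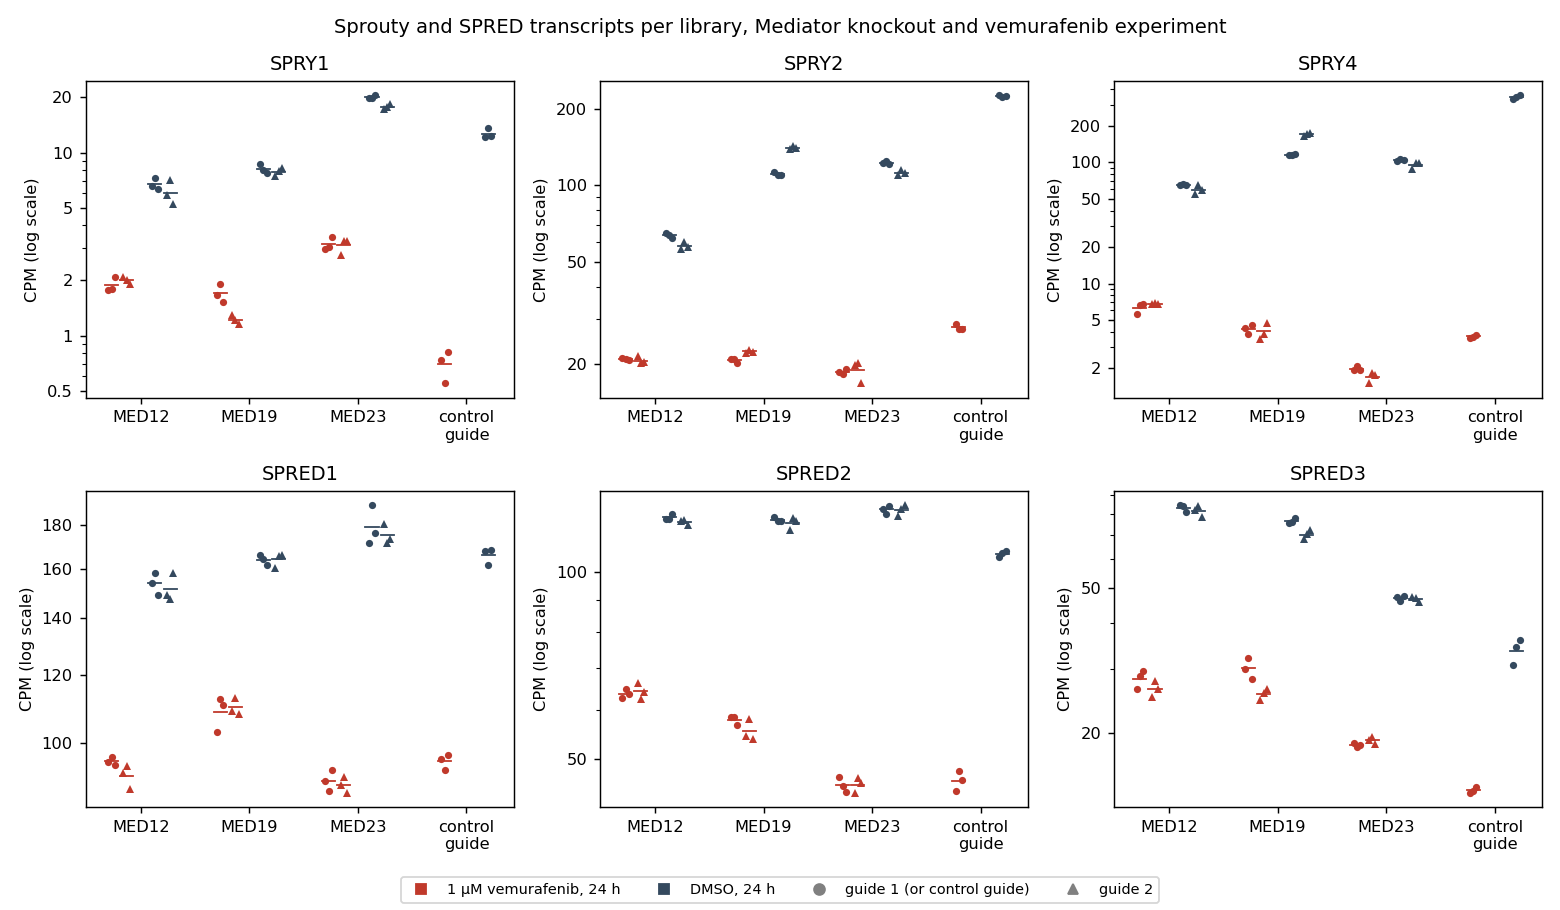
CPM of the 6 genes (log axis) in the 42 libraries of the Mediator and vemurafenib experiment, by genotype; red is vemurafenib, dark blue is DMSO, circles are guide 1 or the control guide, triangles are guide 2, and lines are group means. SPRY4 libraries under vemurafenib lie between 1.51 and 6.96 CPM, and all vemurafenib libraries of each gene lie below all its DMSO libraries of the same genotype.

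The first comparison asked what BRAF inhibition did to the family in control-guide cells. All 6 members fell under vemurafenib, where 30.3% of the 27453 genes tested fell and 66.2% changed in either direction (edgeR quasi-likelihood test, Benjamini-Hochberg adjusted p below 0.05). For 5 of the 6 the fall was at least 2-fold, as for 11.2% of all genes. The members' median log2 fold change was -2.14, against 0.11 over all genes tested. The RNA came from bulk cultures, in which fewer cells that make a transcript and less of it per cell cannot be told apart.

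SPRY4, which restrains RAF activation, had the largest fall of the family. It had 3.58, 3.64 and 3.79 CPM in vemurafenib libraries, against 336, 347 and 357 CPM in DMSO libraries. The vemurafenib libraries are close together and far below the DMSO ones. The log2 fold change was -6.56 ± 0.0651 (SE, n = 3 each; edgeR adjusted p = 6.97e-52), a 94.4-fold difference, and 27 of the 27453 genes tested had a lower one.

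SPRY1, the least abundant member, had 0.732, 0.549 and 0.81 CPM in vemurafenib libraries, against 12.2, 13.6 and 12.2 CPM in DMSO libraries. Its vemurafenib libraries held 246 reads of the gene in all. The groups did not overlap, and the log2 fold change was -4.17 ± 0.111 (edgeR adjusted p = 1.54e-34). SPRY2, the most abundant per kilobase, had 28.5, 27.4 and 27.4 CPM in vemurafenib libraries, against 225, 222 and 224 CPM in DMSO libraries. It fell 8.08-fold, a log2 fold change of -3.01 ± 0.0371 (edgeR adjusted p = 2.28e-48).

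The SPRED genes fell less. SPRED3 had 13.7, 13.8 and 14.3 CPM in vemurafenib libraries, against 30.7, 34.4 and 36 CPM in DMSO libraries, a log2 fold change of -1.28 ± 0.0479. SPRED2 had 44.3, 47.8 and 46.3 CPM in vemurafenib libraries, against 105, 107 and 108 CPM in DMSO libraries, a log2 fold change of -1.21 ± 0.0301. SPRED1 had 95.8, 93 and 96.7 CPM in vemurafenib libraries, against 168, 162 and 168 CPM in DMSO libraries, a log2 fold change of -0.80 ± 0.0337. SPRED1 was the one member under 2-fold. The edgeR adjusted p of the SPRED genes ran between 7.62e-36 for SPRED2 and 2.2e-26 for SPRED1.

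Other genes that ERK induces were read beside the family. In this comparison 30.3% of all genes fell and 66.2% changed in either direction, which is the background for the counts that follow. All 16 of a list of ERK-responsive genes outside it fell, with a median log2 fold change of -1.85 against 0.11 over all genes. ETV4 and ETV5, ETS transcription factors, changed by -5.99 and -4.84, and FOSL1, an AP-1 subunit, by -3.80 on the log2 scale. Of 12 partners and regulators of Sprouty and SPRED proteins, 9 fell and 1 rose, with a median of -0.36. CAV1, the caveolin that binds Sprouty proteins, changed by -1.59, SIAH2, a ubiquitin ligase for SPRY2, by -0.73, NEDD4, another ubiquitin ligase of SPRY2, by -0.59, and MKNK1, an ERK-activated kinase, rose by 0.17. Of the 16 genes of the RAS to ERK core, 8 rose and 8 fell with a median of 0; SOS2, a RAS activator, rose by 0.74 and MAP2K1, which encodes MEK1, changed by -0.67. Of 14 receptors and FGF ligands, 8 rose and 5 fell with a median of 0.79, among them the ligand FGF1 with 2.77 and the receptor FGFR2 with 2.29. KIT, also called, had 34 reads in the vemurafenib libraries and 1 in the DMSO libraries. All 9 melanocyte lineage markers rose in this comparison and their summed level was 2170 to 2230 CPM in vemurafenib libraries against 876 to 953 CPM in DMSO libraries. Without SOX10, the other 8 summed to 1110 to 1150 CPM in vemurafenib libraries, against 152 to 154 CPM in DMSO libraries. Most of the sum under the drug was 1 gene, DCT, which reached 863 CPM. None of the others passed 156 CPM in any library of the experiment. Endothelial markers summed to 5.84 to 6.65 CPM in vemurafenib libraries, against 1.97 to 2.08 CPM in DMSO libraries. They did not move together: VWF rose by 2.51, PECAM1 changed by -1.58 and CDH5 had 0.01 (edgeR adjusted p = 0.991). Of the blood markers, PTPRC rose by 4.97 and LYZ changed by -0.90. The part of these markers in the results was not tested.

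All 6 members also fell under vemurafenib in each Mediator knockout. The share of all genes that fell was 30.8% in MED12, 32.6% in MED19 and 32.1% in MED23 knockout cells. SPRY4 changed by -3.24 ± 0.0399 in MED12, -5.10 ± 0.0446 in MED19 and -5.75 ± 0.053 in MED23 knockout cells on the log2 scale. In fold terms the falls were 9.43, 34.4 and 53.9. SPRY1 changed by -1.71, -2.46 and -2.59 and SPRY2 by -1.56, -2.54 and -2.65 in the same order of knockouts. SPRED3 changed by -1.59, -1.40 and -1.31, SPRED2 by -0.92, -1.09 and -1.47, and SPRED1 by -0.71, -0.58 and -0.98. At least 2-fold falls were called for 4 members in MED12 (5.42% of all genes), 5 in MED19 (9.11%) and 5 in MED23 knockout cells (9.53%). The largest edgeR adjusted p among these 18 values was 4.81e-27. By guide, the MED19 value of SPRY4 was -4.77 with guide 1 and -5.44 with guide 2.

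**Figure D2:**
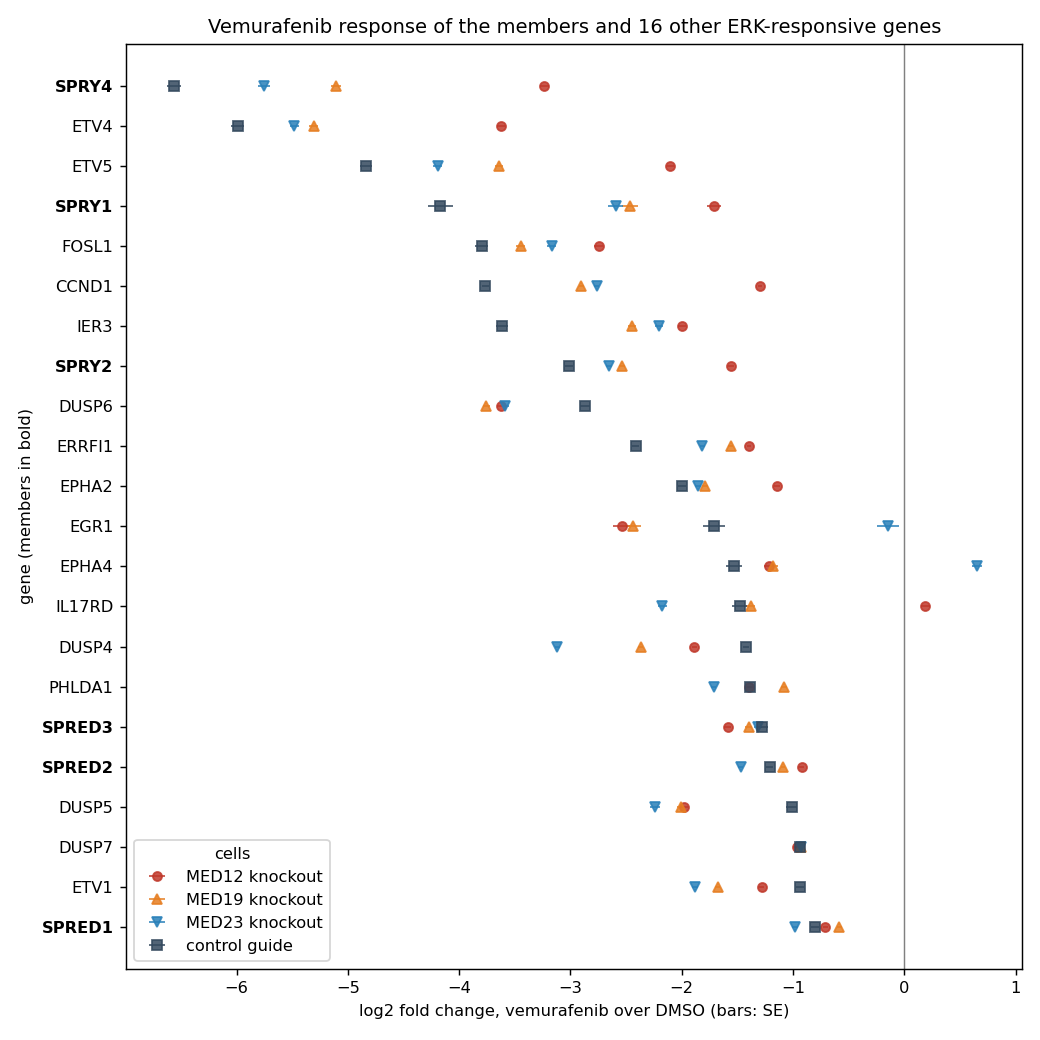
Log2 fold change of vemurafenib over DMSO (x axis; bars are SE) for the 6 members, in bold, and 16 other ERK-responsive genes, in MED12, MED19 and MED23 knockout and control-guide cells. The Sprouty genes lie nearest to 0 in MED12 knockout cells, at -3.24 for SPRY4 against -6.56 in control-guide cells, while DUSP6, DUSP5 and DUSP4 lie farther from 0 in every knockout than in control-guide cells.

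Whether a knockout changed the size of the drug response was tested as the interaction of genotype and treatment. A positive value means that the transcript fell less in the knockout than in control-guide cells. The 3 interactions share the control-guide libraries. In MED12 knockout cells 4 members had a positive interaction, as did 24.9% of all genes, and 1 a negative one, as did 24.2%. In MED19 knockout cells 5 were positive (17.4% of all genes) and none of the 6 was negative (15.2%). For MED23 3 were positive (18.5% of all genes) and 2 negative (16.2%).

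The 3 Sprouty genes were positive in every knockout. SPRY4 had an interaction of 3.32 ± 0.0747 with MED12 (edgeR adjusted p = 8.33e-37), 1.46 ± 0.08 with MED19 and 0.81 ± 0.0963 with MED23. SPRY1 had 2.46 ± 0.133, 1.71 ± 0.139 and 1.58 ± 0.135 for the same knockouts, and SPRY2 had 1.46 ± 0.0437, 0.47 ± 0.0437 and 0.36 ± 0.0446. The largest edgeR adjusted p among these 9 Sprouty values was 2.44e-09. The MED19 guides lay apart. With guide 1 and guide 2 the interaction was 1.79 and 1.12 for SPRY4, 1.91 and 1.51 for SPRY1, and 0.59 and 0.36 for SPRY2. The standard errors over both guides do not contain these differences. An interaction of at least 2-fold was called for 3 members with MED12 (14.7% of all genes), 2 with MED19 (5.13%) and 1 with MED23 (6.35%). The interaction joins a level in DMSO and a level under the drug, and both levels are given in the next paragraphs.

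The SPRED interactions were small and mixed in sign. SPRED2 had 0.29 with MED12, 0.12 with MED19 and -0.26 with MED23, all called; the MED19 call was lost without replicate 3 (0.13, adjusted p = 0.0558) and with guide 2 alone (0.10, adjusted p = 0.0846). SPRED1 had 0.22 with MED19 and -0.18 with MED23, both called, and 0.09 ± 0.041 with MED12 (edgeR adjusted p = 0.062); with DESeq2 the MED12 value was 0.13 with an adjusted p of 0.00588, and without replicate 1 edgeR gave 0.12 (adjusted p = 0.0444). SPRED3 was negative with MED12, at -0.31 ± 0.057. It had -0.12 with MED19 (adjusted p = 0.0995), where guide 2 alone was called (-0.18, adjusted p = 0.0407) and guide 1 alone was not (-0.07, adjusted p = 0.496), and -0.04 with MED23 (adjusted p = 0.685).

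Of the 16 other ERK-responsive genes, 9 had a positive and 5 a negative interaction with MED12, with a median of 0.59 against -0.04 over all genes. ETV5 had 2.73, CCND1, the cyclin D1 gene, 2.47 and ETV4 2.36. The negative ones were DUSP5 with -0.97, EGR1 with -0.83, DUSP6 with -0.76, DUSP4 with -0.46 and ETV1 with -0.34. DUSP4, DUSP5 and DUSP6 encode MAP kinase phosphatases, EGR1 an immediate early transcription factor and ETV1 an ETS factor. With MED19 the list had 9 positive and 5 negative members with a median of 0.25, and with MED23 9 positive and 6 negative with a median of 0.32.

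In DMSO, without the inhibitor, each knockout was set against the same 3 control-guide libraries. In MED12 knockout cells 4 members fell (27% of all genes) and 2 rose (27.9%). In MED19 knockout cells 3 fell (20.2%) and 2 rose (20.4%). MED23 knockout lowered 2 (18.5%) and raised 4 (18.4%). The members' median log2 fold change was -0.56 for MED12, -0.34 for MED19 and 0.17 for MED23, against medians over all genes of 0, 0 and 0.01. Changes of at least 2-fold were called for 3 members in MED12 (15.6% of all genes), 2 in MED19 (6.3%) and 1 in MED23 knockout cells (6.79%). These counts are over both guides. With 1 guide alone, SPRY1 also passed 2-fold with MED12 guide 2 (-1.07) and SPRY2 with MED19 guide 1 (-1.02).

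SPRY4 and SPRY2 fell in all 3 knockouts. In MED12 knockout cells SPRY4 had 64.9, 66.3 and 65 CPM with guide 1 and 55.2, 64.9 and 58.7 CPM with guide 2, against 336, 347 and 357 CPM in control-guide cells. In MED19 knockout cells it had 114, 115 and 118 CPM with guide 1 and 164, 173 and 175 CPM with guide 2. With MED23 guides it had 104, 107 and 104 CPM with guide 1 and 87.7, 97.8 and 98 CPM with guide 2. All knockout libraries lie far below the control ones, and the 2 MED19 guides lie apart from each other. The log2 fold changes were -2.47 ± 0.0388 for MED12 (edgeR adjusted p = 1.01e-43), -1.30 ± 0.0386 for MED19 and -1.80 ± 0.0386 for MED23. By guide, the MED19 value was -1.58 with guide 1 and -1.02 with guide 2, a difference that the standard error over both guides does not contain.

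SPRY2 had 65.3, 64.1 and 62.4 CPM with MED12 guide 1 and 56.1, 60.0 and 57.3 CPM with guide 2, against 225, 222 and 224 CPM in control-guide cells. With MED19 guides it lay between 109.7 and 143 CPM and with MED23 guides between 109 and 124 CPM. No knockout library reached a control library. Its log2 fold changes were -1.88 ± 0.0281 for MED12, -0.84 ± 0.0283 for MED19 and -0.93 ± 0.0282 for MED23. By guide, the MED19 value was -1.02 with guide 1 and -0.67 with guide 2.

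SPRY1 did not follow the other Sprouty genes in MED23 knockout cells. It had 6.54, 7.3 and 6.34 CPM with MED12 guide 1 and 5.86, 7.08 and 5.21 CPM with guide 2, and 7.4 to 8.67 CPM with the MED19 guides. With MED23 guide 1 it had 19.8, 20.0 and 20.5 CPM and with guide 2 17.3, 17.7 and 18.5 CPM, against 12.2, 13.6 and 12.2 CPM in control-guide cells. The MED12 and MED19 libraries are all below and the MED23 libraries all above the control ones. The log2 fold changes were -0.99 ± 0.0708 for MED12, -0.67 ± 0.0712 for MED19 and 0.58 ± 0.0718 for MED23, each called, with edgeR adjusted p of at most 3.06e-09.

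SPRED3 rose in all 3 knockouts. With MED12 guide 1 it had 84.6, 84.1 and 80.8 CPM and with guide 2 82, 83.8 and 78.5 CPM, against 30.7, 34.4 and 36 CPM in control-guide cells. With MED19 guides it lay between 68 and 78 CPM and with MED23 guides between 45.9 and 47.5 CPM. Every knockout library is above every control library. The log2 fold changes were 1.28 ± 0.04 for MED12 (edgeR adjusted p = 2.16e-31), 1.11 ± 0.0398 for MED19 and 0.47 ± 0.0391 for MED23. SPRED2 rose by 0.18, 0.17 and 0.24 on the log2 scale. SPRED1 changed by -0.12 for MED12 and 0.10 for MED23 and had -0.02 for MED19 (adjusted p = 0.714), where its libraries overlapped the controls. Its MED23 call in DMSO was lost without replicate 1 (0.09, adjusted p = 0.0512), without replicate 2 (0.06, adjusted p = 0.118) and with guide 2 alone (0.08, adjusted p = 0.0568).

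**Figure D3:**
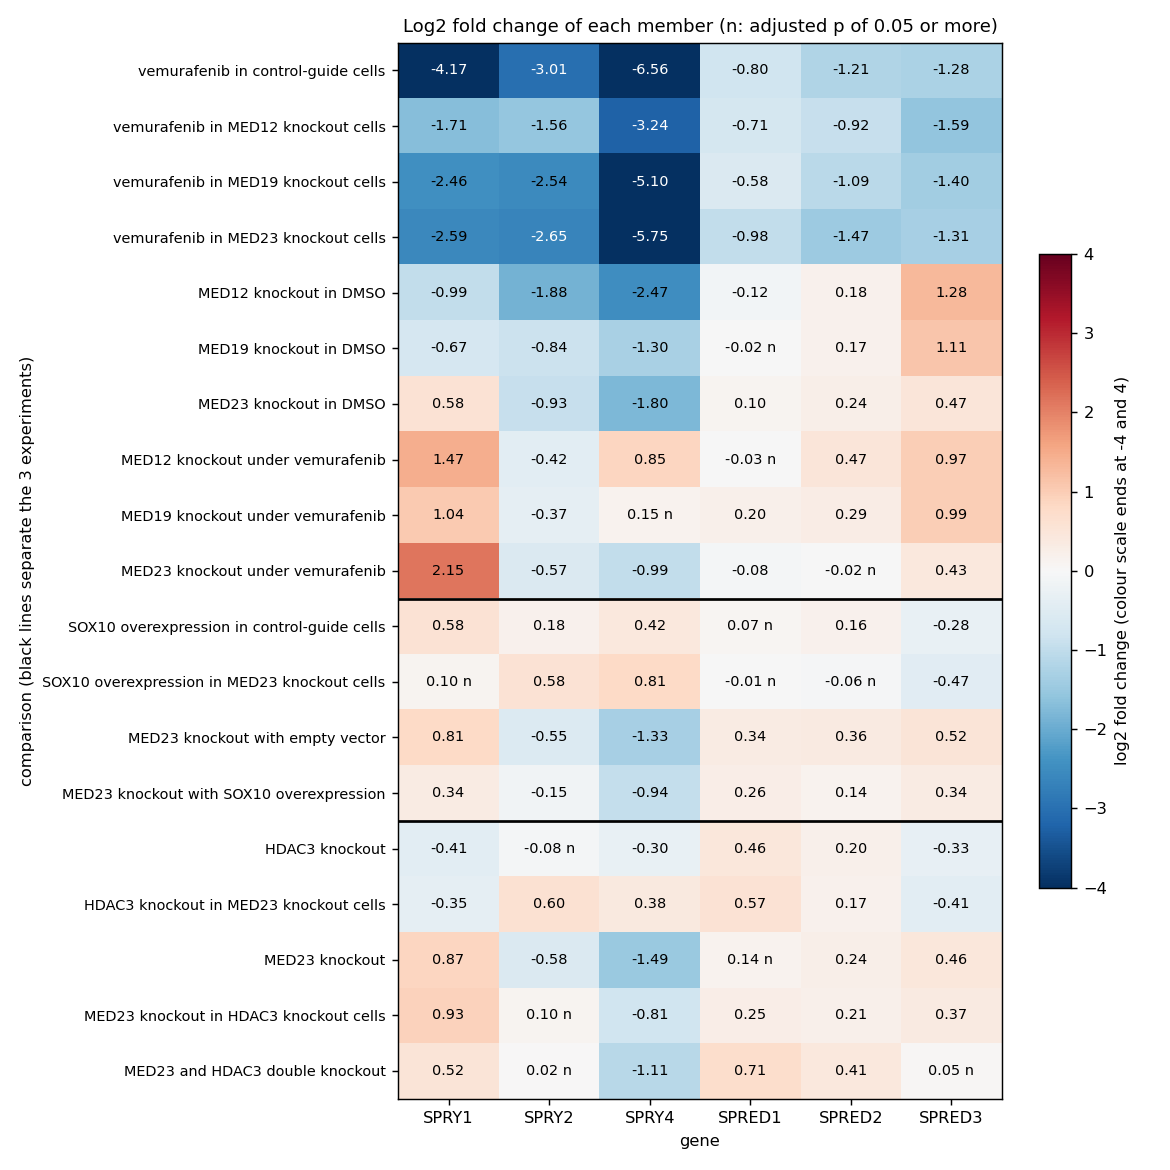
Log2 fold change of the 6 genes (columns) in 19 comparisons (rows), tested over control, from edgeR; colours stop at -4 and 4, the letter n marks an adjusted p of 0.05 or more, and black lines part the 3 experiments. SPRY4 was below 0 in all 4 rows of vemurafenib and all 3 Mediator knockouts in DMSO, and SPRED3 was above 0 in every row of a single Mediator gene knockout, down to 0.34 with SOX10 overexpression.

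The other ERK-responsive genes did not move together in DMSO. In MED12 knockout cells 11 of 16 fell and 4 rose, with a median of -0.43. DUSP4 changed by -1.62, PHLDA1, an ERK-induced gene, by -1.26 and EGR1 by -1.23, while DUSP5 rose by 1.03, the receptor gene EPHA4 by 0.83 and EPHA2 by 0.77. ERRFI1, an inhibitor of EGFR, rose by 0.18. In MED19 knockout cells 6 fell and 6 rose, with a median of 0.02. With MED23 knocked out, 11 fell and 5 rose, with a median of -0.19. EGR1 changed by -3.67 there and IL17RD, itself an FGF receptor feedback inhibitor also called SEF, rose by 2.75. Melanocyte lineage markers were lower in the knockouts, 6 of 9 in MED12, 5 of 9 in MED19 and 5 of 9 in MED23 knockout cells, with 1, 0 and 2 higher (edgeR). Their summed level, which includes SOX10, was 169 to 219, 487 to 649 and 367 to 420 CPM in these knockouts, against 876 to 953 CPM in control-guide cells. Without SOX10, the other 8 markers summed to 73.2 to 81, 74.1 to 85.7 and 99.4 to 108 CPM, against 152 to 154 CPM. MED12 knockout cells were far below the other knockouts only with SOX10 counted. Epithelial markers summed to 1.62 to 2.22, 5.2 to 6.51 and 3.04 to 3.81 CPM in the same knockouts, against 9.69 to 10.4 CPM in control-guide cells. They did not move together. KRT14 changed by -3.24, -0.86 and -1.79, while CDH1 rose by 4.65 and EPCAM by 1.44 in MED12 knockout cells. KRT5 rose by 0.75 in MED19 and 1.09 in MED23 knockout cells. The part of lineage and epithelial markers in the results on the members was not tested.

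Among genes upstream of the family, EGFR rose by 1.99 in MED12, 1.43 in MED19 and 2.48 in MED23 knockout cells in DMSO. The NRG receptor gene ERBB3 changed by -3.95, -1.27 and -1.69. Of the 12 partners, 5 rose and 3 fell in MED12, 4 rose and 3 fell in MED19, and 5 rose and 3 fell in MED23 knockout cells, with medians of 0.05, 0.04 and 0.07. Of the 16 genes of the RAS to ERK core, 10 rose and 6 fell in MED12, 7 rose and 3 fell in MED19, and 10 rose and 4 fell in MED23 knockout cells. KSR1, a scaffold of RAF and MEK, rose by 1.36 in MED12 knockout cells.

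Under vemurafenib the knockouts differed from control-guide cells in another way. In MED12 knockout cells 4 members were higher (32.5% of all genes) and 1 lower (29.6%). In MED19 knockout cells 4 were higher (23.1%) and 1 lower (20.7%). In MED23 knockout cells 2 were higher (24.6%) and 3 lower (22.7%). In each knockout 1 member, SPRY1, differed by at least 2-fold over both guides, as did 21% of all genes for MED12, 8.11% for MED19 and 11.6% for MED23. With 1 guide alone, SPRED3 also passed 2-fold with MED12 guide 1 (log2 fold change 1.02) and MED19 guide 1 (1.11). SPRY4 did so with MED23 guide 2 (-1.1).

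SPRY1 was higher in all 3 knockouts under the drug. It had 1.76, 1.79 and 2.09 CPM with MED12 guide 1 and 2.96, 3.06 and 3.44 CPM with MED23 guide 1, against 0.732, 0.549 and 0.81 CPM in control-guide cells. With MED19 guides it lay between 1.15 and 1.91 CPM. No knockout library overlapped a control library. The log2 fold changes were 1.47 ± 0.113 for MED12, 1.04 ± 0.12 for MED19 and 2.15 ± 0.114 for MED23 (largest edgeR adjusted p 2.53e-10). By guide, the MED19 value was 1.27 with guide 1 and 0.81 with guide 2, which is under 2-fold. Levels here rest on few reads, 246 in the control group and 391 to 1142 in a knockout group.

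SPRY4 differed between the knockouts under the drug. It had 5.65, 6.61 and 6.74 CPM with MED12 guide 1 and 6.72, 6.96 and 6.82 CPM with guide 2, against 3.58, 3.64 and 3.79 CPM in control-guide cells. With MED23 guide 1 it had 1.93, 2.09 and 1.95 CPM and with guide 2 1.51, 1.84 and 1.76 CPM. The MED12 libraries are all above and the MED23 libraries all below the control ones, with log2 fold changes of 0.85 ± 0.0648 (edgeR adjusted p = 2.57e-16) and -0.99 ± 0.0855 (3.14e-14). The MED19 libraries, 3.5 to 4.75 CPM, overlapped the control ones, at 0.15 ± 0.0704 (adjusted p = 0.0772). That value was called with guide 1 alone (0.21, adjusted p = 0.0247), without the filter on low counts (0.18, adjusted p = 0.00414) and without replicate 1 (0.18, adjusted p = 0.0383).

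SPRY2 was lower in all 3 knockouts under the drug, with log2 fold changes of -0.42, -0.37 and -0.57 for MED12, MED19 and MED23. Its libraries lay between 16.8 and 22.7 CPM in the knockouts, against 27.4 to 28.5 CPM in control-guide cells, with no overlap. SPRED3 was higher in all 3, by 0.97, 0.99 and 0.43. SPRED2 was higher by 0.47 in MED12 and 0.29 in MED19 and had -0.02 in MED23 knockout cells (adjusted p = 0.543). SPRED1 was higher by 0.20 in MED19 knockout cells and had -0.03 in MED12 knockout cells (adjusted p = 0.413). Its MED23 value was -0.08 (adjusted p = 0.0157), and that call was lost without replicate 1 (adjusted p = 0.0943), without replicate 3 (adjusted p = 0.118) and with guide 1 alone (adjusted p = 0.0698).

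Of the 16 other ERK-responsive genes, 9 were higher and 6 lower in MED12 knockout cells under the drug, 10 and 6 in MED19, and 9 and 7 in MED23 knockout cells. The medians were 0.69, 0.53 and 0.33. ETV5 was higher by 2.28 in MED12 knockout cells and DUSP4 was lower, at -2.08. Of the partners, CAV1 was higher by 2.42, 1.33 and 1.97 in MED12, MED19 and MED23 knockout cells. The lineage markers summed to 163 to 204, 578 to 894 and 481 to 599 CPM in these knockouts under the drug, against 2170 to 2230 CPM in control-guide cells. Without SOX10, the other 8 markers summed to 97 to 112, 163 to 314 and 173 to 189 CPM, against 1110 to 1150 CPM. DCT made up most of this control-guide sum.

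Over the 14 groups the order of levels differed by gene. SPRY4 and SPRY2 were highest in control-guide cells in DMSO, whereas SPRY1 was highest with MED23 guide 1 in DMSO (20.1 CPM), SPRED3 with MED12 guide 1 in DMSO (83.1 CPM) and SPRED1 and SPRED2 with MED23 guide 1 in DMSO (179 and 126 CPM). For each of the 3 SPRED genes the highest group overlapped the other guide against the same gene, so the guides cannot be ranked. SPRY4 was lowest with MED23 guide 2 under vemurafenib, at 1.7 CPM, SPRY1 in control-guide cells under vemurafenib, at 0.697 CPM, and SPRED3 in the same group, at 13.9 CPM. Neighbouring groups overlapped at 3 of the 13 steps for SPRY4, at 4 for SPRY2, at 5 for SPRY1, at 7 for SPRED3, at 8 for SPRED1 and at 9 for SPRED2.

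The knockouts were also set against each other, MED12 over MED23 and MED19 over MED23, which share the MED23 libraries. In DMSO, MED12 knockout cells had 5 members lower (24.9% of all genes) and 1 higher (25.9%) than MED23 knockout cells. Under vemurafenib 5 were higher (29.9%) and 1 lower (25.8%). The difference was at least 2-fold for 1 member in DMSO, SPRY1 (10.3% of all genes), and 1 under the drug, SPRY4 (12.1%). SPRY4 was lower in MED12 knockout cells in DMSO, at -0.67 ± 0.0338, and higher under the drug, at 1.84 ± 0.0648. SPRY2 was likewise at -0.95 in DMSO and 0.15 under the drug, and SPRY1 was lower in both, at -1.57 and -0.69. SPRED3 was higher in both, by 0.81 and 0.54. SPRED2 had -0.05 in DMSO, where its libraries overlapped and the call was lost without replicate 2 (-0.06, adjusted p = 0.0518) without replicate 3 (-0.04, adjusted p = 0.243), with either guide alone (adjusted p = 0.253 and 0.0699) and without the filter on low counts (adjusted p = 0.0532). It had 0.49 under the drug. SPRED1 was at -0.22 in DMSO and had 0.06 under the drug, with overlapping libraries and a call lost without replicate 1 (0.03, adjusted p = 0.416), without replicate 2 (0.04, adjusted p = 0.186), with either guide alone (adjusted p = 0.0673 and 0.419) and when only the groups compared were fitted (adjusted p = 0.101).

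MED19 knockout cells had 3 members higher (17.5% of all genes) and 3 lower (16.1%) than MED23 knockout cells in DMSO, and 5 higher (19%) and 1 lower (17.6%) under vemurafenib. At least 2-fold were SPRY1 alone in DMSO (3.84% of all genes) and SPRY1 and SPRY4 under the drug, 2 members (4.36%). SPRY1 was the lower one under the drug, at -1.11, and was at -1.24 in DMSO. By guide, its value under the drug was -0.89 with guides numbered 1, which is under 2-fold, and -1.33 with guides numbered 2. SPRY4 was higher by 0.50 in DMSO and by 1.15 under the drug; by guide, the DMSO value was 0.14 with guide 1 and 0.85 with guide 2. SPRY2 had 0.09 in DMSO with overlapping libraries, but -0.15 with the guides numbered 1 and 0.33 with those numbered 2, so its direction depended on the guide; without replicate 1 it was 0.06 (adjusted p = 0.14). SPRED3 was higher by 0.64 in DMSO and 0.56 under the drug, and SPRED2 had -0.06 and 0.32, the DMSO call being lost without replicate 3 (-0.05, adjusted p = 0.214) and with either guide alone (adjusted p = 0.18 and 0.0725). SPRED1 had -0.11 and 0.28.

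SOX10 was next raised on top of the line's own expression. SOX10 had 589 to 612 CPM with the construct, against 514 to 531 CPM with the empty vector, in control-guide cells. In MED23 knockout cells it had 423 to 436 CPM with the construct, against 239 to 251 CPM with the empty vector. Whether the count includes all transcripts of the construct is not given in the sources used here. MED23 had 14.3 to 16.6 CPM in MED23 knockout libraries, against 29.4 to 32.6 CPM in control-guide libraries.

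SOX10 overexpression in control-guide cells raised 4 members (11.6% of the 18009 genes tested) and lowered 1 (11%). SPRY1 had 15.9, 16.4 and 14.2 CPM with SOX10, against 10.4, 10.5 and 10.3 CPM with the empty vector, a log2 fold change of 0.58 ± 0.0684 (edgeR adjusted p = 1e-07). SPRY4 had 376, 394 and 374 CPM with SOX10, against 289, 291 and 278 CPM with the empty vector, a log2 fold change of 0.42 ± 0.036. The groups did not overlap for either gene. SPRY2 rose by 0.18 and SPRED2 by 0.16, SPRED3 changed by -0.28, and SPRED1 had 0.07 with overlapping libraries (adjusted p = 0.226).

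In MED23 knockout cells SOX10 overexpression raised 2 members (21.2% of all genes) and lowered 1 (20.7%). SPRY4 had 203, 194 and 198 CPM with SOX10, against 106, 112 and 121 CPM with the empty vector. SPRY2 had 196, 197 and 191 CPM with SOX10, against 126, 128 and 135 CPM with the empty vector. Both genes were higher in every SOX10 library, by 0.81 ± 0.0386 for SPRY4 (edgeR adjusted p = 1.1e-16) and 0.58 ± 0.0335 for SPRY2. SPRED3 changed by -0.47 ± 0.0514, while SPRY1 had 0.10 (adjusted p = 0.162), SPRED2 -0.06 (0.223) and SPRED1 -0.01 (0.911). Without replicate 1 the SPRED2 value was called (-0.10, adjusted p = 0.0335).

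The SOX10 effect differed between the genotypes for 4 members, 2 of them positive (7.64% of all genes) and 2 negative (7.04%). The interaction was 0.40 ± 0.0467 for SPRY2 and 0.39 ± 0.0528 for SPRY4, so both rose more in MED23 knockout cells. It was -0.47 ± 0.0905 for SPRY1 and -0.22 ± 0.0525 for SPRED2; the SPRED2 call was lost without replicate 2 (-0.21, adjusted p = 0.087). SPRED3 had -0.18 (adjusted p = 0.111) and SPRED1 -0.07 (adjusted p = 0.407).

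None of the 6 SOX10 effects reached 2-fold in control-guide cells (2.38% of all genes did) or in MED23 knockout cells (5.42%), nor did an interaction (1.55%). MED23 knockout was read again in this experiment, with the empty vector and with SOX10. With the empty vector 4 members rose (21.2% of all genes) and 2 fell (22.3%), and with SOX10 4 rose (16.1%) and 2 fell (16.3%). SPRY4 changed by -1.33 ± 0.0384 with the empty vector and -0.94 ± 0.0366 with SOX10, and SPRY2 by -0.55 and -0.15. SPRY4 with the empty vector was the 1 change of at least 2-fold (5.51% of all genes); with SOX10 there was none (3.3%). SPRY1 rose by 0.81 and 0.34, SPRED3 by 0.52 and 0.34, SPRED1 by 0.34 and 0.26, and SPRED2 by 0.36 and 0.14. The SPRED2 call with SOX10 was lost without replicate 3 (0.11, adjusted p = 0.0554). With SOX10 in MED23 knockout cells SPRY2 was at 191 to 197 CPM, close to the 187 to 194 CPM of control-guide cells with the empty vector, and SPRY4 at 194 to 203 CPM lay below the 278 to 291 CPM of that group; these groups differ in 2 factors and were not tested against each other.

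The other ERK-responsive genes had 4 of 16 higher and 10 lower with SOX10 in control-guide cells, with a median of -0.28 against 0 over all genes, and 3 higher and 9 lower in MED23 knockout cells, with a median of -0.23. IL17RD changed by -1.76 and -2.26 in these comparisons, EPHA2 by -0.68 and -0.37, and DUSP4 by -0.58 and -0.83. ETV4, the gene closest to SPRY4 in pattern in the vemurafenib experiment, changed by -0.30 and -0.26. Of the 16 RAS to ERK core genes 1 rose and 4 fell in control-guide cells, and none rose and 4 fell in MED23 knockout cells, by edgeR. Lineage markers summed to 802 to 834 CPM with SOX10, against 643 to 657 CPM with the empty vector, in control-guide cells; in MED23 knockout cells they summed to 564 to 577 CPM with SOX10, against 330.0 to 347 CPM with the empty vector. These sums include SOX10 itself. Without it, the other 8 markers summed to 213 to 227 CPM with SOX10, against 123 to 128 CPM with the empty vector, in control-guide cells, and to 136 to 141 CPM with SOX10, against 89.4 to 95.2 CPM with the empty vector, in MED23 knockout cells. Epithelial markers summed to 6.37 to 7.95 CPM with SOX10, against 12.2 to 12.9 CPM with the empty vector, in control-guide cells. Of these, KRT14 changed by -0.80 and KRT5 had 1.06 (edgeR adjusted p = 0.439). The part of lineage and epithelial markers in the results on the members was not tested.

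**Figure D4:**
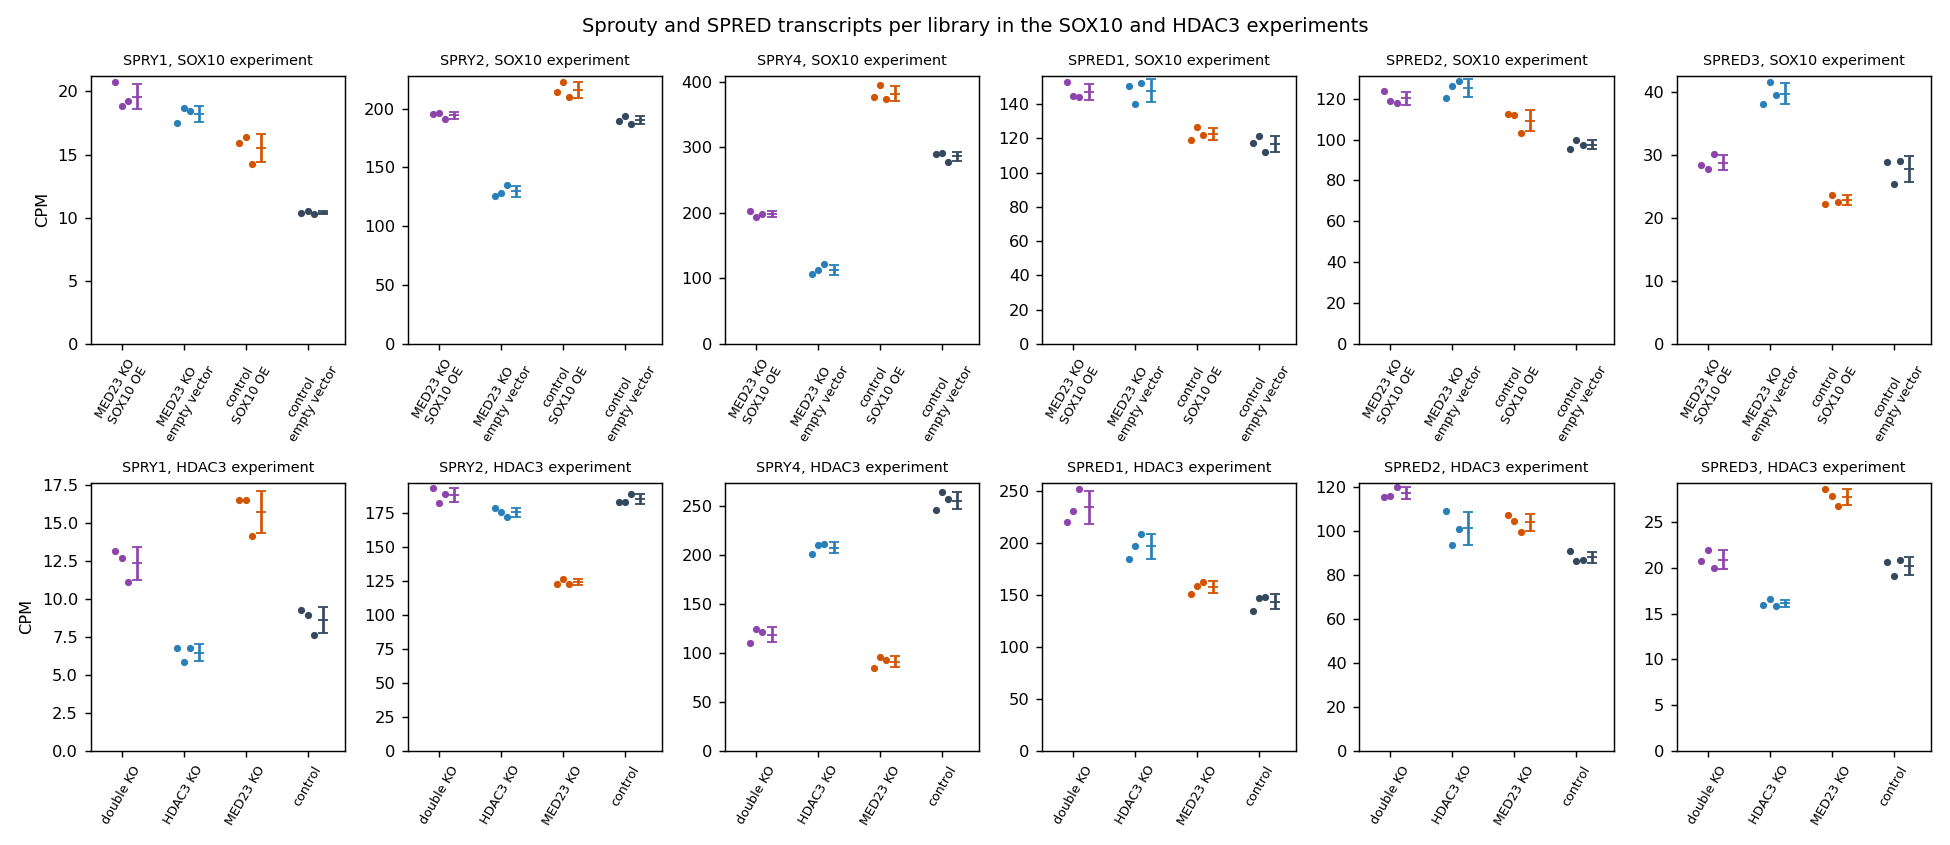
CPM of the 6 genes (linear axes from 0) in the 12 libraries each of the SOX10 experiment (top) and the HDAC3 experiment (bottom); dots are libraries and bars are mean ± SD (n = 3). SPRY2 stands at 191 to 197 CPM in MED23 knockout cells with SOX10, against 126 to 135 CPM with the empty vector, and at 182 to 193 CPM in double knockout cells against 183 to 189 CPM in control cells.

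The HDAC3 experiment asked what the loss of HDAC3 did with and without MED23. HDAC3 had 28.7 to 35.6 CPM in HDAC3 and double knockout libraries, against 56.6 to 61.2 CPM in MED23 knockout and control libraries. MED23 had 15.3 to 18.2 CPM in MED23 and double knockout libraries, against 31.9 to 36.6 CPM in the others. The columns of the control cells are named for GFP in the deposited table and were taken as the control samples by elimination, and every comparison with control cells in this experiment rests on that.

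HDAC3 knockout alone raised 2 members (21.2% of the 21139 genes tested) and lowered 3 (20.9%). SPRED1 had 184, 198 and 209 CPM in HDAC3 knockout cells, against 135, 147 and 148 CPM in control cells, a log2 fold change of 0.46 ± 0.0549 (edgeR adjusted p = 4.45e-07). SPRY4 had 201, 210.0 and 211 CPM in HDAC3 knockout cells, against 246, 264 and 256 CPM in control cells, a log2 fold change of -0.30 ± 0.052. Neither overlapped. SPRED2 rose by 0.20, SPRY1 changed by -0.41 and SPRED3 by -0.33, and SPRY2 had -0.08 (adjusted p = 0.13). The SPRY1 call was lost without replicate 2 (-0.32, adjusted p = 0.0766).

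In MED23 knockout cells the further loss of HDAC3 raised 4 members (19.1% of all genes) and lowered 2 (18.9%). SPRY2 had 193, 182 and 189 CPM in double knockout cells, against 123, 127 and 123 CPM in MED23 knockout cells, a log2 fold change of 0.60 ± 0.0408 (edgeR adjusted p = 8.17e-11). SPRY4 had 109.7, 124 and 121 CPM in double knockout cells, against 84.8, 96 and 92.6 CPM in MED23 knockout cells, a log2 fold change of 0.38 ± 0.0529. The double knockout libraries are all higher for both genes. SPRED1 rose by 0.57 ± 0.0549 and SPRED2 by 0.17, while SPRED3 changed by -0.41 and SPRY1 by -0.35. Without replicate 2 the SPRY1 (-0.34, adjusted p = 0.0541) and SPRED2 (0.18, adjusted p = 0.075) calls were lost, and without replicate 3 the SPRED2 call (0.12, adjusted p = 0.154).

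The HDAC3 effect differed by MED23 genotype for 2 members, both positive, as for 10% of all genes; none of the 6 was negative (10.5%). These were SPRY2 with an interaction of 0.68 ± 0.0574 (edgeR adjusted p = 9.81e-09) and SPRY4 with 0.68 ± 0.0742 (4.47e-07). SPRY4 changed in opposite directions, lower with HDAC3 loss in MED23-intact cells and higher in MED23 knockout cells. SPRY1 had 0.06 ± 0.133 (adjusted p = 0.818), SPRED1 0.11 ± 0.0775 (0.345), SPRED2 -0.03 ± 0.0726 (0.848) and SPRED3 -0.08 ± 0.0874 (0.576), which does not show that these effects are equal. No HDAC3 effect on a member reached 2-fold in either background, as 8.19% of all genes did in MED23-intact and 6.03% in MED23 knockout cells, and no interaction did (3.55%).

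MED23 knockout alone raised 3 members (12.3% of all genes) and lowered 2 (12%). SPRY4 changed by -1.49 ± 0.0533 (edgeR adjusted p = 2.05e-15) and SPRY2 by -0.58 ± 0.0406. SPRY1 had 16.5, 16.5 and 14.1 CPM in MED23 knockout cells, against 9.24, 8.93 and 7.62 CPM in control cells, and rose by 0.87 ± 0.0907. SPRED3 rose by 0.46 and SPRED2 by 0.24. SPRED1 had 0.14 (adjusted p = 0.0743), which was called when only these 2 groups were fitted (0.13, adjusted p = 0.03). SPRY4 was the 1 member past 2-fold (4.76% of all genes).

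In HDAC3 knockout cells the further loss of MED23 raised 4 members (17.2% of all genes) and lowered 1 (18.3%). SPRY4 changed by -0.81 ± 0.0528, SPRY1 rose by 0.93 ± 0.0981, SPRED3 by 0.37, SPRED1 by 0.25 and SPRED2 by 0.21, whose call was lost without replicate 2 (0.17, adjusted p = 0.11). SPRY2 had 0.10 ± 0.0406 (edgeR adjusted p = 0.0549), which DESeq2 called with an adjusted p of 0.0274. The double knockout against control cells raised 3 members (18.2%) and lowered 1 (18.4%). SPRED1 had 220.5, 230.4 and 252 CPM in double knockout cells, against 135, 147 and 148 CPM in control cells, a log2 fold change of 0.71 ± 0.055. SPRY1 rose by 0.52 and SPRED2 by 0.41, and SPRY4 changed by -1.11 ± 0.0528. SPRY2 had 0.02 (adjusted p = 0.692) and SPRED3 0.05 (adjusted p = 0.586), both with overlapping libraries. Past 2-fold was 1 member in the double knockout, SPRY4 (5% of all genes), and none for MED23 loss in HDAC3 knockout cells (6.41%).

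Of the other ERK-responsive genes, 9 of 16 rose and 6 fell in HDAC3 knockout cells with a median of 0.15, and 10 rose and 4 fell with HDAC3 loss in MED23 knockout cells with a median of 0.34. IL17RD changed by -1.72 and -2.32 in these comparisons, while DUSP5 rose by 1.08 and 0.84. CCND1 rose by 0.86 with HDAC3 loss in MED23 knockout cells. MED23 loss raised 5 and lowered 9 of the list, with a median of -0.18, and EGR1 changed by -2.91 there. Lineage markers summed to 1030 to 1060 CPM in HDAC3 knockout cells, against 579 to 592 CPM in control cells, and to 513 to 572 CPM in double knockout cells, against 311 to 326 CPM in MED23 knockout cells. Without SOX10, the other 8 markers summed to 551 to 586 CPM in HDAC3 knockout cells, against 133 to 142 CPM in control cells. In double knockout cells they summed to 158 to 169 CPM, against 89.7 to 98.8 CPM in MED23 knockout cells. Epithelial markers summed to 3.57 to 4.64 CPM in MED23 knockout cells, against 11.3 to 12.1 CPM in control cells. Of these, KRT14 changed by -1.66, while KRT5 had 0.70 (edgeR adjusted p = 0.303) and EPCAM 0.20 (0.824). The part of lineage and epithelial markers in the results on the members was not tested.

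MED23 was knocked out in all 3 experiments, each with its own control libraries. The values in DMSO are over both guides and those with the empty vector are from guide 1. The labels of the HDAC3 experiment name no guide. With guide 1 alone the values in DMSO were -1.73 for SPRY4, -0.87 for SPRY2 and 0.66 for SPRY1. They were 0.47 for SPRED3, 0.24 for SPRED2 and 0.11 for SPRED1. SPRY4 changed by -1.80 in DMSO, -1.33 with the empty vector and -1.49 in the HDAC3 experiment, and SPRY2 by -0.93, -0.55 and -0.58. SPRY1 rose by 0.58, 0.81 and 0.87 and SPRED3 by 0.47, 0.52 and 0.46. SPRED2 rose by 0.24, 0.36 and 0.24. SPRED1 rose by 0.10 and 0.34 in the first 2 and had 0.14 in the last (adjusted p = 0.0743).

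For each member the genes with the most similar pattern were taken as those with the smallest root mean square difference between centred log2 CPM profiles over the 14 groups of the vemurafenib experiment, among 11870 genes. SPRY4 was closest to ETV4, at 0.54, then to the hyaluronan-binding gene CEMIP at 0.65 and to ETV5 at 0.93. SPRY2 was closest to NPAS2, a clock transcription factor, at 0.22, with UBASH3B, a phosphatase of receptor tyrosine kinases, and TGFA, an EGFR ligand, at 0.31 each. SPRY1 was closest to FAM84B at 0.40, SOX11, a transcription factor, at 0.49 and MYBL2, a cell cycle transcription factor, at 0.51. SPRED3 was closest to PLK3, a stress-responsive kinase, at 0.19. SPRED1 was closest to STAG1, a cohesin subunit, at 0.07, and SPRED2 to SNRPA1, a spliceosome protein, at 0.08. A small difference is easier to reach for genes that vary little, as SPRED1 and SPRED2 do, and the libraries are shared by all the genes compared.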

How the data were processed

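The deposited tables hold raw counts of reads per gene, 1 table per experiment. Per the submitters' processing notes, the authors used bcl2fastq, HISAT2, HTSeq and the build hg38; versions, annotation and strand setting were not given in the sources used here. Per the labels, the RNA came from RNeasy Plus extraction and the libraries from a stranded KAPA mRNA kit. Each table was fitted alone with edgeR 4.0.16 in R 4.3.3: filterByExpr (minimum count 10, minimum total 15), TMM scaling, 1 mean per group, glmQLFit and glmQLFTest, Benjamini-Hochberg adjustment over all genes tested, and a call at an adjusted p below 0.05. Both guides of a gene weigh equally, and the difference between guides does not enter the spread. The SE is the absolute log2 fold change over the square root of F. CPM are counts per 1000000 of the TMM-scaled library size. Overlap of libraries between groups was read for the members only, so the share of all genes without overlap is not known. DESeq2 1.42.0 was an alternative. Of 58721 gene IDs, 58676 are in GENCODE 29. Named genes are the 6 members, the targeted genes, from each list up to 3 with the largest called changes and those called against its majority, and the 3 genes closest to each member; not every gene of the rule is printed, and some list genes shown for comparison (such as DUSP6, ETV4 and EGFR) were chosen after their values were seen. Members and lists were chosen with earlier results of these data known, and no list was tested as a set.

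Replicate pairs differed by more than sampling noise (chi-square per degree of freedom 1.42 or more). Tested on simulated counts, 100 of 100 genes changed 1.5-fold were called for vemurafenib in control-guide cells (24279 genes, 7 of 24079 unchanged ones called), 100 of 100 for SOX10 in control-guide cells (17485 genes, 10 of 17285) and 99 of 100 for HDAC3 knockout (20375 genes, 11 of 20175). The changed genes were drawn from those above a minimum mean level, and all other genes had the same mean in every group. The real vemurafenib comparison called 66.2% of genes. Changes under 1.5-fold were not simulated. In the 3 experiments, same-numbered replicates had a mean correlation of deviations of 0.006, 0.043 and 0.214. All 3 pairs passed 0.1 only for HDAC3 knockout in MED23 knockout cells, where the block changed no call.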

Additional observations from a re-analysis of the deposited data

Results flagged for a closer look

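Each result here is an interaction, the difference between 2 genotypes in the effect of the same treatment, that passed the test of the difference itself (edgeR quasi-likelihood, Benjamini-Hochberg adjusted p below 0.05). The values are on the log2 scale, with the SE where it bears on the size.

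Vemurafenib lowered the Sprouty genes by a smaller fold in Mediator knockout cells than in control-guide cells. Levels under the drug were not all higher in the knockouts. SPRY2 had 20.7, 21.5 and 18.7 CPM with MED12, MED19 and MED23 loss, against 27.7 CPM, after 60.9, 126 and 117 CPM in DMSO, against 224 CPM. SPRY4 with MED23 loss had 1.85 CPM under the drug, against 3.67 CPM, and 99.6 CPM in DMSO, against 347 CPM. For MED12 the interaction was 2.46 ± 0.133 for SPRY1, 1.46 ± 0.0437 for SPRY2 and 3.32 ± 0.0747 for SPRY4. For MED19 it was 1.71 ± 0.139 for SPRY1, 0.47 ± 0.0437 for SPRY2 and 1.46 ± 0.08 for SPRY4. With guide 1 and guide 2 alone these were 1.91 and 1.51, 0.59 and 0.36, and 1.79 and 1.12. For MED23 it was 1.58 ± 0.135 for SPRY1, 0.36 ± 0.0446 for SPRY2 and 0.81 ± 0.0963 for SPRY4. In the SPRED genes, the interaction with MED12 was 0.29 for SPRED2 and -0.31 for SPRED3. With MED19 it was 0.22 for SPRED1 and 0.12 for SPRED2 (adjusted p = 0.00718, and 0.0558 without replicate 3 and 0.0846 with guide 2 alone, where the call was lost). With MED23 it was -0.18 for SPRED1 and -0.26 for SPRED2.

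SOX10 overexpression had different effects in MED23 knockout and control-guide cells on SPRY1 (-0.47), SPRY2 (0.40), SPRY4 (0.39) and SPRED2 (-0.22). HDAC3 knockout had different effects in MED23 knockout and MED23-intact cells on SPRY2 (0.68 ± 0.0574) and SPRY4 (0.68 ± 0.0742).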

How the results depend on the processing

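The 6 members in 28 comparisons gave 168 log2 fold changes, 146 of them called, and 1674 values under alternatives. Of these, 1519 kept direction and side of the threshold, 133 lost the call (104 of them because the fold was under 2), 14 gained it and 8 changed sign. Calls that hung on 1 replicate or 1 guide are named beside their values in the report.

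With a 2-fold minimum added, no member stayed called (0) for HDAC3 knockout in either background, for either SOX10 comparison, for MED23 knockout with SOX10 or in HDAC3 knockout cells, or for the MED23 by SOX10 and MED23 by HDAC3 interactions. There was 1 for MED12 against MED23 in DMSO and under vemurafenib, MED19 against MED23 in DMSO, each of MED12, MED19 and MED23 knockout under vemurafenib, MED23 knockout in the other 3 settings (DMSO, empty vector, HDAC3 experiment), the double knockout and the MED23 by vemurafenib interaction. There were 2 for MED19 against MED23 under vemurafenib, MED19 knockout in DMSO and its interaction, and 3 for MED12 knockout in DMSO and its interaction.

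The sign changed when 1 replicate was left out for SPRED1 with SOX10 in MED23 knockout cells (-0.03 to 0.03 over the 3 replicates left out), SPRED2 (-0.07 to 0.04) and SPRY1 (-0.02 to 0.18) in the MED23 by HDAC3 interaction, SPRED3 (-0.03 to 0.10) and SPRY2 (0.0 to 0.04) in the double knockout and SPRED3 in the MED23 by vemurafenib interaction (-0.07 to 0.04). None of these was called. It also changed for SPRED1 with SOX10 in MED23 knockout cells without the low-count filter (0.0) and for SPRY2 in MED19 against MED23 knockout cells in DMSO with guide 1 alone (-0.15, edgeR adjusted p = 0.00051). The cause was not tested.

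In the HDAC3 experiment, same-numbered replicates had a mean correlation of deviations of 0.214, against -0.105 for other numbers. There 13 of 18 same-numbered pairs passed 0.1. The means were 0.006 against -0.003 in the vemurafenib experiment and 0.043 against -0.022 in the SOX10 experiment. The labels do not say what a replicate number stands for. The fit with a replicate block lost no call and gained 3: SPRED1 in MED23 knockout (0.14, edgeR adjusted p = 0.00369), SPRY2 for MED23 in HDAC3 knockout cells (0.10, 0.0244) and SPRY4 for MED19 knockout under vemurafenib (0.16, 0.0277), making 6 called members in each. SPRY1 under vemurafenib rests on the fewest reads.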
